A study of Mus musculus with 6 samples.

Results

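The 10 genes described here handle phosphate and vitamin D in the kidney: the sodium-phosphate carriers Slc34a1, Slc34a3, Slc20a1 and Slc20a2, the scaffold genes Pdzk1 and Slc9a3r1, klotho (Kl), the vitamin D receptor gene Vdr, and the vitamin D hydroxylase genes Cyp27b1 and Cyp24a1. They were chosen by name, as the non-control probes that carry one of these gene names, which found 14 probes for 10 of 10 genes among 19598 genes tested. Both kidneys of 3 CD-1 mice, an outbred stock, were measured on 6 single-colour Agilent arrays, 1 kidney per array. In mice 495, 485 and 512 the left kidney lay behind a completely tied ureter (ligated), and the right kidney, whose ureter was not tied, served as each animal's own control (contralateral). Tying 1 ureter is a standard way to scar a rodent kidney, and the question here is how the tied side differs from its partner. All animals had the operation, so each control is a kidney whose partner was obstructed, and no kidney of an unoperated or sham-operated mouse is among the 6 arrays. The labels call the material kidney and also primary cells. The animals' age and the time from ligation to sampling are not given in the sources used here.

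Phosphate filtered by the glomerulus is taken back in the proximal tubule by carriers in the brush border, chiefly the products of Slc34a1 (NaPi-IIa) and Slc34a3 (NaPi-IIc). Scaffold proteins with PDZ domains hold these carriers at the membrane. Parathyroid hormone and the bone hormone FGF23 lower the uptake, and FGF23 needs klotho as a coreceptor. The kidney is also where vitamin D is activated, by the product of Cyp27b1, and broken down, by that of Cyp24a1; the active hormone acts through the receptor encoded by Vdr.

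The array holds 2 probes for Kl, and the design's own annotation gives the second one to the mRNA of the secreted klotho isoform. The first 30 of the 60 bases of each are shown to tell these probes apart. The exon that either probe lies in was not determined here, so the second probe may also read the full mRNA, and its name below is only that of its annotation. On the mm8 build the probe for the full klotho mRNA lies at chr5:151261516-151261575 and that for the secreted isoform at chr5:151255290-151255349, both on the plus strand.
Kl, full mRNA: tgagtggtcttattgataaccctgatacca
Kl, secreted isoform: ctgttattctgggatggttctggtagagaa

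RefSeq promoters (GRCm38.p6) were matched for 8 of the 10 genes, in 10 windows of the 250 bases before an annotated start. Those of Slc34a1, Slc34a3 and Kl are shown because these genes had the lowest mean log2 changes among the 10. Capitals mark 4 short motifs searched on both strands: GTTAAT, part of the site of the tubular factor HNF1; AGGTCA, the core that nuclear receptors such as the vitamin D receptor bind; the GC box GGGCGG; and the TATA box TATAAA. They are the windows chr13:55399398-55399647 (plus strand), chr2:25234235-25234484 (minus strand) and chr5:150952357-150952606 (plus strand), each written in the gene's own direction.
Slc34a1: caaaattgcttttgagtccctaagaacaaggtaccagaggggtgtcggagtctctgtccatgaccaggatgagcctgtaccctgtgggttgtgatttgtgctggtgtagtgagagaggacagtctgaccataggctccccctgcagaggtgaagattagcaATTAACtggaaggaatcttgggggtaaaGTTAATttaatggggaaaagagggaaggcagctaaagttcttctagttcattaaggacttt
Slc34a3: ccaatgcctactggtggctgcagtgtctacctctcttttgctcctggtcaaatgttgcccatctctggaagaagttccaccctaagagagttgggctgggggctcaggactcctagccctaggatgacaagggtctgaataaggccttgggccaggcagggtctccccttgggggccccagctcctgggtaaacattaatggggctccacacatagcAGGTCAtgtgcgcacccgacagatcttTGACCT
Kl: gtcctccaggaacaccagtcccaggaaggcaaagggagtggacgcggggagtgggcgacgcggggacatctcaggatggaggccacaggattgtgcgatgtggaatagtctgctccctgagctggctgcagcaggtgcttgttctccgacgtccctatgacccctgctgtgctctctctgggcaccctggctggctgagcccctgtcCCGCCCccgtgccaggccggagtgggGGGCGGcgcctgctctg
GTTAAT occurred only in the window of Slc34a1 among the 8 genes, starting 89 bases before the start on the minus strand and 61 bases before it on the plus strand; 6.43% of 32851 promoter windows of the same length hold it. AGGTCA occurred in windows of 3 genes (14.0% of all windows), among them Slc34a3, where it lies 33 bases before the start and, inverted, 6 bases before it. GC boxes occurred in windows of 5 genes (32.7% of all), with 2 in the Kl window, and TATAAA in 0 (12.4% of all). None of the motifs overlapped another in the 3 sequences, and a match is a description of the letters, not of binding.

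Expression is given as the scaled signal, the processed signal of the probe divided by the 75th percentile of its array, and changes as log2 differences, ligated minus contralateral, within a mouse. All 14 probes were above background on all 6 arrays. A gene was called where the adjusted p of limma, fitted across all genes with the mouse as a block, was under 0.05; 5 of the 10 genes were lower by that test and 0 were higher. At an unadjusted limma p under 0.05, Slc34a1 and Slc34a3 were lower as well and 1 was higher, Cyp27b1. Of the 19598 genes tested, 9831 passed that unadjusted cut. Of all genes tested 30.7% were called, 14.7% lower and 16% higher. The median log2 fold change was -1.39 over the 10 genes and -0.01 over all genes. The 5 called lower were Slc20a2, Kl, Pdzk1, Slc9a3r1 and Vdr.

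The contralateral kidney of mouse 512 stood apart from the other 2 controls. Among contralateral kidneys it had the lowest level of 7 of the 10 genes and the highest of 2. The summed scaled signal of 14 proximal tubule markers was 466 in it, against 1779 and 2063 in the other controls and 229 to 352 in the ligated kidneys. For 12 macrophage and monocyte markers the sum was 105.1 in it, against 22.4 and 20.9 in the other controls and 262 to 303 in ligated kidneys. Most of the 105.1 came from Cd14 (41.9) and Lyz2 (38.1). Csf1r was lower in it than in the other controls, at 1.88 against 2.25 and 2.51. Of the 10 genes, 8 had their smallest absolute change in mouse 512. The share of all genes with these traits was not determined. The proximal tubule list had a median difference of -1.04 in mouse 512, against -2.72 and -2.50 in mice 495 and 485. That of the macrophage list was 1.71 against 3.75 and 3.81. The lymphocyte list went the other way, at 3.14 against 1.29 and 2.24. The label kidney was checked on the proximal tubule markers, all 14 of which were above background on all 6 arrays. That check did not test whole kidney against primary cells, both of which the labels name. Mouse 512 alone was on slide 2, the others being on slide 1, so slide and mouse 512 cannot be told apart.

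**Figure D1:**
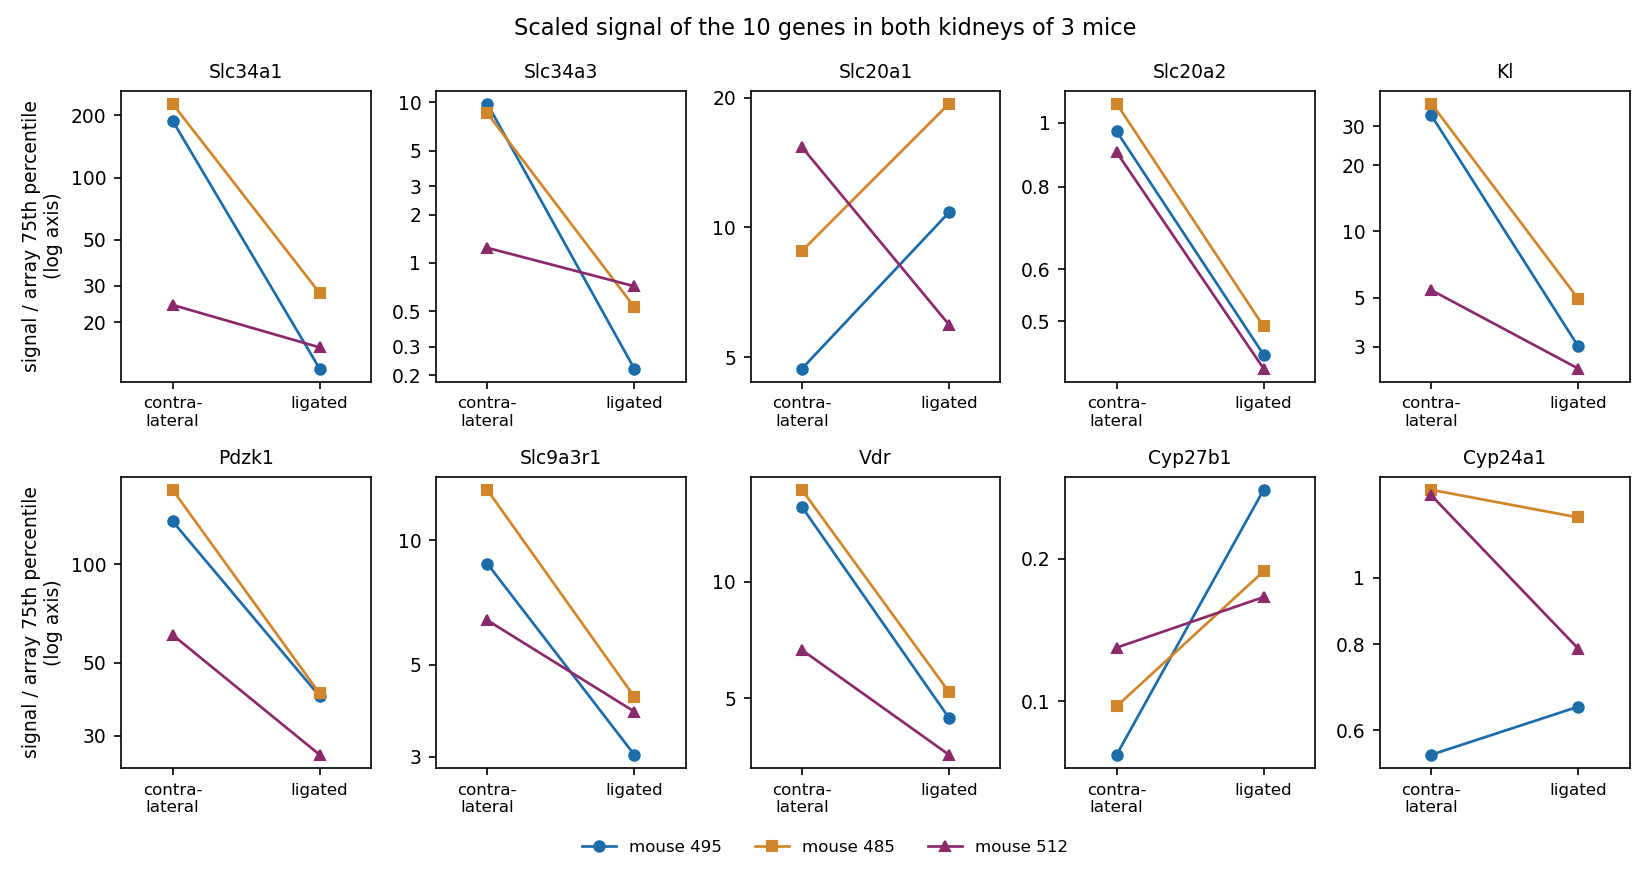
Scaled signal (processed signal over the array's 75th percentile, log axis) of the probe that stands for each of the 10 genes, in the contralateral and the ligated kidney; each line joins the kidneys of 1 mouse. Lines of mouse 512 start low in 7 genes, and Slc20a1 runs down in that mouse and up in the other 2.

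Slc34a1, the main brush border phosphate carrier, had a scaled signal of 188, 227 and 24.2 in the controls of mice 495, 485 and 512, in that order, and of 11.9, 27.7 and 15.1 in their ligated kidneys. The controls of mice 495 and 485 stood far above the rest, while the control of mouse 512 lay below the ligated kidney of mouse 485, so the groups overlapped. The log2 differences of these mice were -3.98, -3.04 and -0.68. The mean of -2.57 ± 0.70 (SE, n = 3 mice) did not pass the test (limma adjusted p = 0.0588). With all mice kept it passed with the slide as the block (0.0372), on the spike-in scale (0.0177) and when arrays were centred on their medians (0.0363). In the fit of slide 1 alone, that is without mouse 512, it was -3.51 with an adjusted p of 0.00333, where 28.9% of all genes were lower.

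Slc34a3, the second carrier of the brush border, read 9.82, 8.56 and 1.24 in contralateral kidneys and 0.219, 0.531 and 0.715 in ligated ones, in the same order of mice. The groups did not overlap, and the lowest control was again that of mouse 512. The log2 differences were -5.49, -4.01 and -0.80, and their mean was the lowest among the 10 genes at -3.43 ± 0.98 (SE, n = 3), with only 0.0612% of all genes lower still. It did not pass (adjusted p = 0.0638). It passed without the mouse block (0.0399), with the slide as the block (0.0357), with centring on the median (0.0409) and on the spike-in spots (0.0135), and without mouse 512 it was -4.75 (adjusted p = 0.00364). Within mice, Slc34a3 moved further than Slc34a1 by -1.51, -0.97 and -0.11 on the log2 scale, with an exact sign-flip p of 0.25, the smallest that 3 pairs allow.

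Slc20a1, which encodes the carrier PiT-1 found in most cell types, gave opposite directions among the mice. Its brighter probe, at chr2:128902835-128902894 in mm8, read 4.71, 8.82 and 15.3 in contralateral kidneys and 10.8, 19.3 and 5.96 in ligated ones. The signal was higher in the ligated kidney of mice 495 and 485, by 1.20 and 1.13, and lower in that of mouse 512, at -1.37. The mean of 0.32 ± 0.61 (SE, n = 3) did not pass (adjusted p = 0.688), and its 95% interval ran from -1.36 to 2.00. Without mouse 512 the change was 1.17 and passed (adjusted p = 0.00667); without mouse 495 or mouse 485 the mean turned to -0.12 or -0.08.

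The second Slc20a1 probe, at chr2:128890314-128890373, read 0.243, 0.332 and 0.325 in contralateral and 0.265, 0.457 and 0.254 in ligated kidneys. Its differences of 0.13, 0.46 and -0.35 had the same signs as those of the brighter probe but were smaller, and its mean of 0.08 ± 0.21 did not pass in the fit of every probe (limma adjusted p = 0.783).

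Slc20a2, which encodes the related carrier PiT-2, fell 2.16-fold and was the most even of the 10 genes. The scaled signal was 0.971, 1.07 and 0.903 in contralateral kidneys and 0.445, 0.491 and 0.424 in ligated ones. Every ligated kidney lay below every control, and mouse 512 did not stand apart on this scale. The log2 differences of -1.13, -1.12 and -1.09 gave a mean of -1.11 ± 0.14 (SE, n = 3; limma adjusted p = 0.0237). A second probe read 0.603, 0.724 and 0.548 against 0.249, 0.299 and 0.306, and also fell (-1.13 ± 0.17, adjusted p = 0.0269 in the fit of every probe). Centring the arrays on their spike-in spots raised the median change of all genes to 0.31. Slc20a2 was then at -0.79 ± 0.43 (SE) and not called (limma adjusted p = 0.259). The SE was larger there than the 0.14 above, so the evenness depended on the scaling.

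Klotho fell 5.79-fold. The probe for the full mRNA read 33.6, 37.9 and 5.42 in contralateral kidneys and 3.01, 4.95 and 2.39 in ligated ones. All ligated kidneys were below all controls, with the control of mouse 512 the closest to them. The differences were -3.48, -2.94 and -1.18, with a mean of -2.53 ± 0.51 (SE, n = 3; limma adjusted p = 0.0361). The call was lost without the mouse block (adjusted p = 0.0575) and with no filter on dim probes (0.0524), and without mouse 512 the value was -3.21 (0.00266).

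The probe annotated to the secreted klotho isoform, which may also read the full mRNA, read 1.31, 1.57 and 0.511 in contralateral and 0.350, 0.525 and 0.217 in ligated kidneys. It was lower in the ligated kidney of each mouse, by -1.91, -1.58 and -1.24, while across mice the control of mouse 512 fell just below the ligated kidney of mouse 485. Its mean of -1.58 ± 0.19 (SE, n = 3) passed in the fit of every probe (limma adjusted p = 0.0237), where 30.2% of all probes were called and 14.9% were lower. In mice 495 and 485 the full-mRNA probe fell further than the secreted-isoform probe, with differences of -1.57 and -1.36 between the changes, while in mouse 512 the difference was 0.06. The mean of these was -0.96 ± 0.88 (SD, n = 3; exact sign-flip p = 0.5, where 3 pairs cannot go below 0.25), so the test could not have passed at this number of mice.

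**Figure D2:**
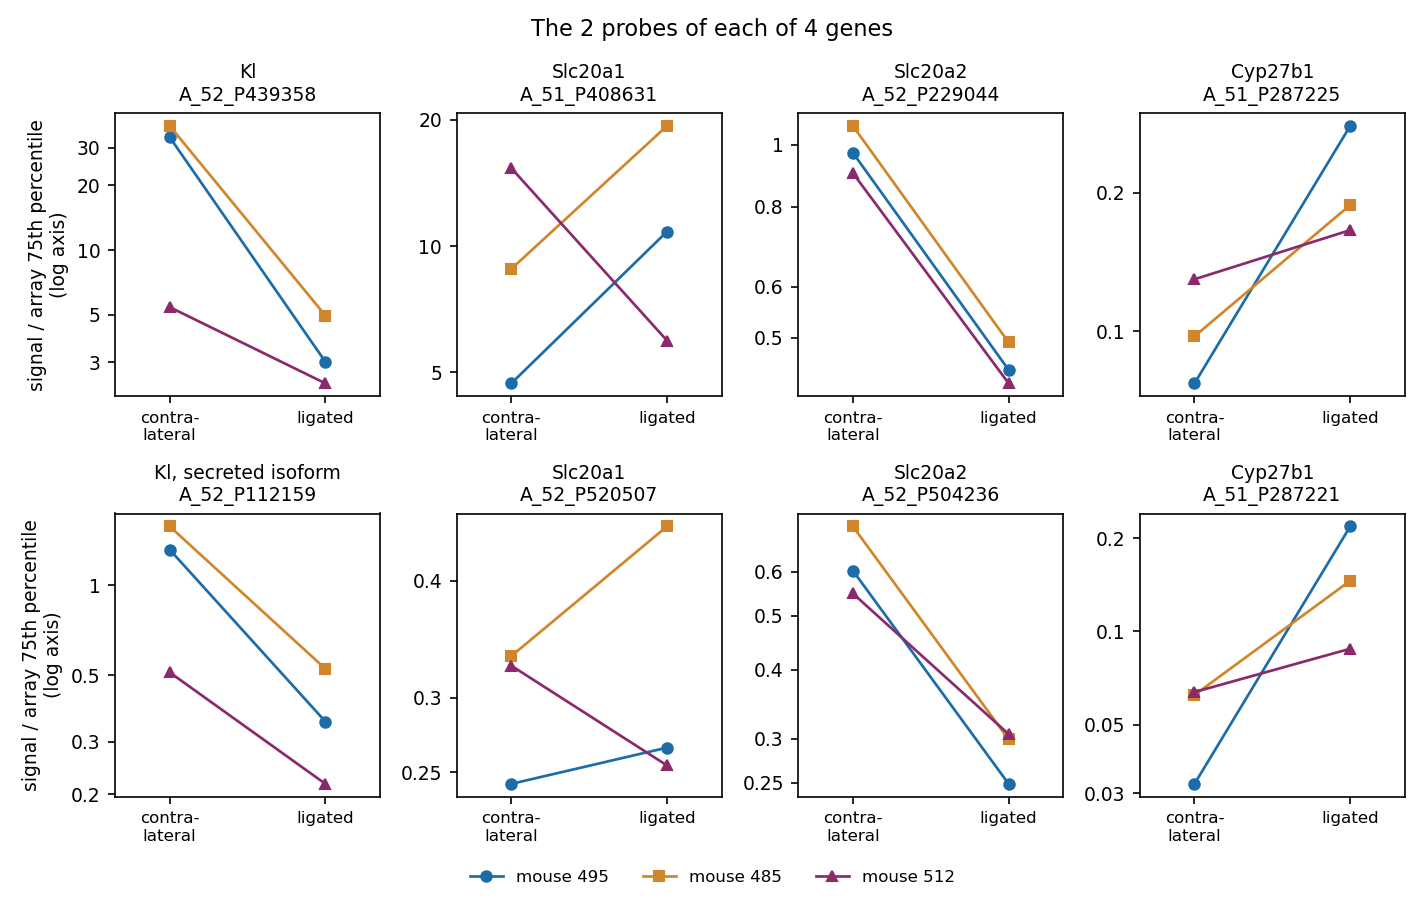
Scaled signal (log axis) of both probes of Kl, Slc20a1, Slc20a2 and Cyp27b1, the brighter probe above, with a line per mouse from the contralateral to the ligated kidney. The probe annotated to the secreted Kl isoform runs down in all 3 mice, and both probes of Slc20a1 run down in mouse 512 alone.

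Both scaffold genes fell. Pdzk1 encodes a protein with several PDZ domains that binds the tails of brush border carriers. It read 135, 168 and 60.8 in contralateral kidneys and 39.6, 40.3 and 26.2 in ligated ones, with no overlap. Its differences were -1.77, -2.06 and -1.21, a 3.21-fold fall (-1.68 ± 0.22 SE, n = 3; limma adjusted p = 0.0250). Pdzk1 stayed past the threshold in each fit that kept all 3 mice.

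Slc9a3r1 encodes NHERF1, the scaffold that ties the carriers to the actin cortex and to the parathyroid hormone receptor. Its signal was 8.77, 13.2 and 6.41 in contralateral and 3.03, 4.19 and 3.86 in ligated kidneys, again with no overlap. It fell 2.48-fold (-1.31 ± 0.24 SE, n = 3; limma adjusted p = 0.0335), with differences of -1.53, -1.66 and -0.73. The call was lost with no filter on dim probes (adjusted p = 0.0531) and on the spike-in scale (-0.99, 0.131). Pdzk1 was the further from 0 of both scaffolds in all 3 mice, by -0.24, -0.40 and -0.48, with the smallest exact sign-flip p that 3 pairs allow, 0.25.

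The vitamin D receptor gene fell while the hydroxylase genes did not pass. Vdr, a nuclear receptor expressed in tubule cells and also in immune cells, read 15.6, 17.2 and 6.66 in contralateral kidneys and 4.45, 5.20 and 3.58 in ligated ones. No ligated kidney reached the lowest control. The fall was 2.78-fold (-1.48 ± 0.25 SE, n = 3; limma adjusted p = 0.0305), made of -1.81, -1.73 and -0.90. On the spike-in scale it was -1.16 and not called (adjusted p = 0.0833).

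Cyp27b1, the activating hydroxylase, read 0.0771, 0.0976 and 0.130 in contralateral and 0.280, 0.188 and 0.166 in ligated kidneys. All ligated kidneys were above all controls, the gap being narrowest within mouse 512. The differences of 1.86, 0.95 and 0.35 gave 1.05 ± 0.34 (SE, n = 3), which did not pass (limma adjusted p = 0.0784). A second probe, at differences of 2.76, 1.23 and 0.46, did not pass either (1.48 ± 0.49, adjusted p = 0.0833 in the fit of every probe). The gene passed without the mouse block (adjusted p = 0.0425), with the slide as the block (0.0456) and without mouse 512 (1.40, 0.0197), and with normexp background correction it was 0.53 and did not pass (0.122). Macrophages also express this enzyme. Of 12 macrophage and monocyte markers, 11 rose in the ligated kidney, where 16% of all genes were higher. The part of these markers in the Cyp27b1 values was not tested.

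Cyp24a1, the inactivating hydroxylase and a target of the vitamin D receptor, showed no common direction. It read 0.553, 1.34 and 1.32 in contralateral and 0.650, 1.22 and 0.789 in ligated kidneys, and the ranges overlapped. The differences were 0.23, -0.13 and -0.74, with a mean of -0.21 ± 0.24 (SE, n = 3; limma adjusted p = 0.504) and a 95% interval from -0.88 to 0.45. The sign of the mean turned on the spike-in scale (0.11) and without mouse 512 (0.05).

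**Figure D3:**
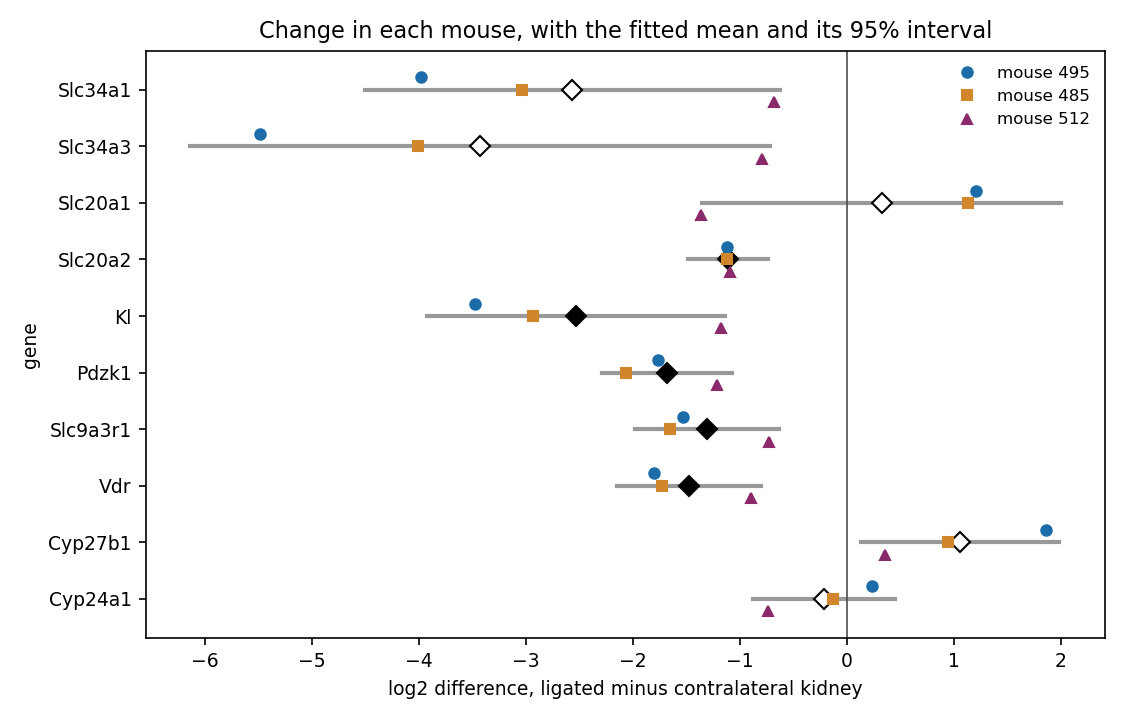
Log2 difference (ligated minus contralateral) of each of the 10 genes in each mouse, with the fitted mean as a diamond, filled where the adjusted p was under 0.05, and its unadjusted 95% interval as a grey bar. The 3 mice lie together for Slc20a2, spread widely for Slc34a1 and Slc34a3, and fall on both sides of 0 for Slc20a1 and Cyp24a1.

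Across the 10 genes, 8 had the same direction in all 3 mice, 7 of them lower in the ligated kidney. In 6 genes every ligated kidney was below every control (28.8% of all genes tested), and in 1, Cyp27b1, every ligated kidney was above (24.7% of all). Measured from the mean of the other 2 controls, the control of mouse 512 was at -3.09 for Slc34a1, -2.72 for Kl, -1.31 for Pdzk1, -1.30 for Vdr and -0.17 for Slc20a2 on the log2 scale. The ligated kidney of mouse 512 was at -3.77, -3.90, -2.52, -2.19 and -1.26 for these genes. The ligated kidneys of the other mice averaged -3.51, -3.21, -1.92, -1.77 and -1.12. For the other 2 genes lower in all mice, Slc34a3 and Slc9a3r1, the control of mouse 512 was at -2.88 and -0.75, its ligated kidney at -3.68 and -1.48, and the other ligated kidneys at -4.75 and -1.60. The control of mouse 512 was below the mean of the other controls in all 7 genes, and its ligated kidney was below the mean of the other ligated kidneys in the first 5 and above it in Slc34a3 and Slc9a3r1. Without the mouse 512 pair 7 of the 10 genes were lower and 2 higher, where 56.3% of all genes were called, 28.9% lower and 27.4% higher. Without mouse 495 or without mouse 485, 0 of the 10 and 0 of all genes passed in limma, while 4950 and 4948 genes had an unadjusted p under 0.05. With no filter on dim probes 3 of the 10 were lower, where 9.42% of all genes were called, 3.2% lower and 6.23% higher.

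Many markers of the nephron segments that carry these proteins were lower as well. Beside the marker counts below, 14.7% of all genes were lower and 16% higher. Of 14 proximal tubule markers tested, 11 were lower and 0 higher, with a median of -2.10; the organic anion transporter gene Slc22a6 fell 12.1-fold, the dicarboxylate carrier gene Slc13a3 8.77-fold and the peptidase gene Ggt1 6.29-fold. Their median difference was -2.72, -2.50 and -1.04 in mice 495, 485 and 512, beside -3.98, -3.04 and -0.68 for Slc34a1 and -1.77, -2.06 and -1.21 for Pdzk1. Klotho is made mainly in the distal tubule. Of 12 distal nephron markers 6 were lower and 0 higher, at a median of -1.08, with Aqp2 7.34-fold, Slc12a3 3.57-fold and Emx1 2.74-fold lower. The other 6 did not pass: Klk1 (-2.68), Kcnj1 (-0.96), Slc12a1 (-0.56), Trpm6 (-0.51), Umod (-0.17) and Cldn16 (0.13). If the material is whole kidney, fewer cells of a type and less RNA per cell cannot be told apart. Of 12 macrophage and monocyte markers 11 were higher in the ligated kidney, at a median of 3.13, among them Mrc1, Adgre1 and Lyz2. Of 12 fibroblast and pericyte markers 10 were higher, among them Col1a1 and Col3a1, but Fap and Postn passed the filter only through the ligated kidneys. Over the 10 above background on all arrays, 8 were higher, at a median of 2.60. Of 12 lymphocyte markers 6 were higher, among them Cd3d, Cd3g and Lck, and 6 did not pass; Cd2 and Cd79a passed the filter only through the ligated kidneys. Over the 10 lymphocyte markers above background on all arrays, 5 were higher, at a median of 2.45, and with normexp background correction the median of all 12 was 1.21. The summed scaled signal was 20.1 to 85.0 in contralateral and 149 to 280 in ligated kidneys for the fibroblast list, and 0.879 to 1.42 against 3.95 to 11.4 for the lymphocyte list. That of the distal nephron list was 124 to 488 in contralateral and 131 to 181 in ligated kidneys. None of these markers was listed at 0, and Fap was above background on no contralateral array. The part of these shifts in the values of the 10 genes was not tested.

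Of 16 genes listed for the FGF23 and klotho axis, 12 were tested, 3 were lower and 1 higher, and 8 did not pass. The share called was near that of all genes, of which 14.7% were lower and 16% higher. The median was 0.25 (-0.05 with centring on the median). Sfrp4, the highest on the list at 2.12 and not called, passed the filter only through the ligated kidneys. Over the 11 genes above background on all arrays, 3 were lower and 2 higher, at a median of 0.07. Of 17353 genes kept by that filter, 3351 were lower and 2449 higher. The FGF receptor genes Fgfr3 and Fgfr4, whose products can pair with klotho, fell 2.65-fold (-1.41 ± 0.14, limma adjusted p = 0.0220) and 2.07-fold (-1.05 ± 0.16, 0.0279). Fgfr4 read 9.18, 10.8 and 6.31 in contralateral kidneys and 4.27, 4.66 and 3.54 in ligated ones. Galnt3, which glycosylates FGF23 and protects it from cleavage, fell 2.32-fold, and the stanniocalcin gene Stc2 rose 3.84-fold. Fgfr1, the receptor gene most often tied to the renal effects of FGF23, stood at 0.07 ± 0.14 (adjusted p = 0.713). The sheddase genes Adam10 and Adam17, whose products release klotho from the membrane, were at 0.73 and 0.56 and did not pass (0.0983 and 0.0569). Fgf23 itself, Klb, Phex and Dmp1 did not reach the background filter.

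Of 13 genes tested for parathyroid hormone signalling and carrier scaffolding, 5 were lower and 0 higher, at a median of -0.56, where 14.7% of all genes were lower and 16% higher. The hormone's receptor gene Pth1r fell 2.09-fold (-1.07 ± 0.21, limma adjusted p = 0.0358), reading 78.2, 85.7 and 42.2 in contralateral and 32.1, 34.6 and 27.7 in ligated kidneys. The sodium-hydrogen exchanger gene Slc9a3, which shares the scaffolds of the phosphate carriers, fell 3.45-fold, and Pdzk1ip1, whose product binds PDZK1, 2.86-fold. The other 2 were Myo6, a motor of carrier endocytosis (1.73-fold), and Gabarap (1.57-fold). Slc9a3r2, which encodes the sister scaffold NHERF2, was at 0.42 ± 0.17 (adjusted p = 0.125), and the linker gene Ezr at -0.07 ± 0.17 (0.764). Shank2 did not reach the filter.

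Of 10 other phosphate and pyrophosphate carriers and related enzymes tested, 5 were lower and 1 higher, at a median of -1.19, where 14.7% of all genes were lower and 16% higher. The brush border carrier genes Slc17a3 and Slc17a1 fell 6.79-fold (-2.76 ± 0.45, limma adjusted p = 0.0298) and 5.50-fold (-2.46 ± 0.25, 0.0220). Slc17a1 read 43.6, 57.9 and 21.2 in contralateral and 5.64, 10.1 and 5.67 in ligated kidneys, with no overlap. Xpr1, the phosphate exporter gene, fell 2.19-fold, the mitochondrial phosphate carrier gene Slc25a3 2.39-fold and the alkaline phosphatase gene Alpl 2.41-fold. Ank, the pyrophosphate exporter gene, rose 3.26-fold (1.70 ± 0.16, 0.0220), from 0.205, 0.185 and 0.331 to 0.723, 0.657 and 0.918. Slc34a2, the third member of the Slc34 family, was dim at 0.0373, 0.0558 and 0.523 in contralateral and 0.221, 0.208 and 0.382 in ligated kidneys, and did not pass (1.34 ± 0.66, 0.175).

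Of 20 genes tested for vitamin D uptake, metabolism and receptor partners, 6 were lower and 0 higher, at a median of -0.63. Of all genes 14.7% were lower and 16% higher, 30.7% in all. The total share called was near that of all genes, but all 6 calls here were lower. The endocytic receptors that take up vitamin D bound to its carrier protein, Cubn and Lrp2, fell 4.75-fold and 4.74-fold, and their partner Amn 3.48-fold (-1.80 ± 0.18, limma adjusted p = 0.0220). The adaptor gene Dab2 fell 2.34-fold, Fdx1, the electron donor of the mitochondrial hydroxylases, 2.59-fold, and Rxra, the usual partner of the vitamin D receptor, 1.99-fold (-0.99 ± 0.21, 0.0388). Rxra read 20.1, 18.9 and 12.1 in contralateral and 8.55, 8.12 and 8.32 in ligated kidneys. Rxrb and Rxrg were at -0.40 and -0.84 and did not pass. Rxrg was dim, at 0.0528, 0.0113 and 0.0335 in contralateral and 0.0111, 0.0136 and 0.0232 in ligated kidneys. It passed the filter only through the ligated kidneys. Gc, the gene of the vitamin D binding protein, read 0.529, 0.246 and 5.46 in contralateral and 6.87, 5.58 and 6.16 in ligated kidneys, so that the control of mouse 512 stood close to the ligated kidneys; its mean of 2.79 ± 0.94 did not pass (0.0877). Cyp2r1 did not reach the filter.

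Of 11 renal targets of the vitamin D receptor, 3 were lower and 2 higher, at a median of -0.51. Of all genes 14.7% were lower and 16% higher, and the share higher was near that. The calcium channel gene Trpv6 rose 5.72-fold (2.52 ± 0.55, limma adjusted p = 0.0409), from 0.152, 0.0726 and 0.727 to 0.945, 0.989 and 1.61, and Ren1, the renin gene that the receptor represses, rose 2.30-fold (1.20 ± 0.14, 0.0232). Some mice carry a near-identical second renin gene, which the probe may also read. The sodium-calcium exchanger gene Slc8a1 fell 3.43-fold, and the claudin genes Cldn2 and Cldn12 fell 2.00-fold and 1.79-fold. Calb1 and S100g, calcium-binding proteins that the receptor induces, were at -3.42 ± 0.87 and -3.28 ± 1.21 and did not pass (0.0525 and 0.104).

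**Figure D4:**
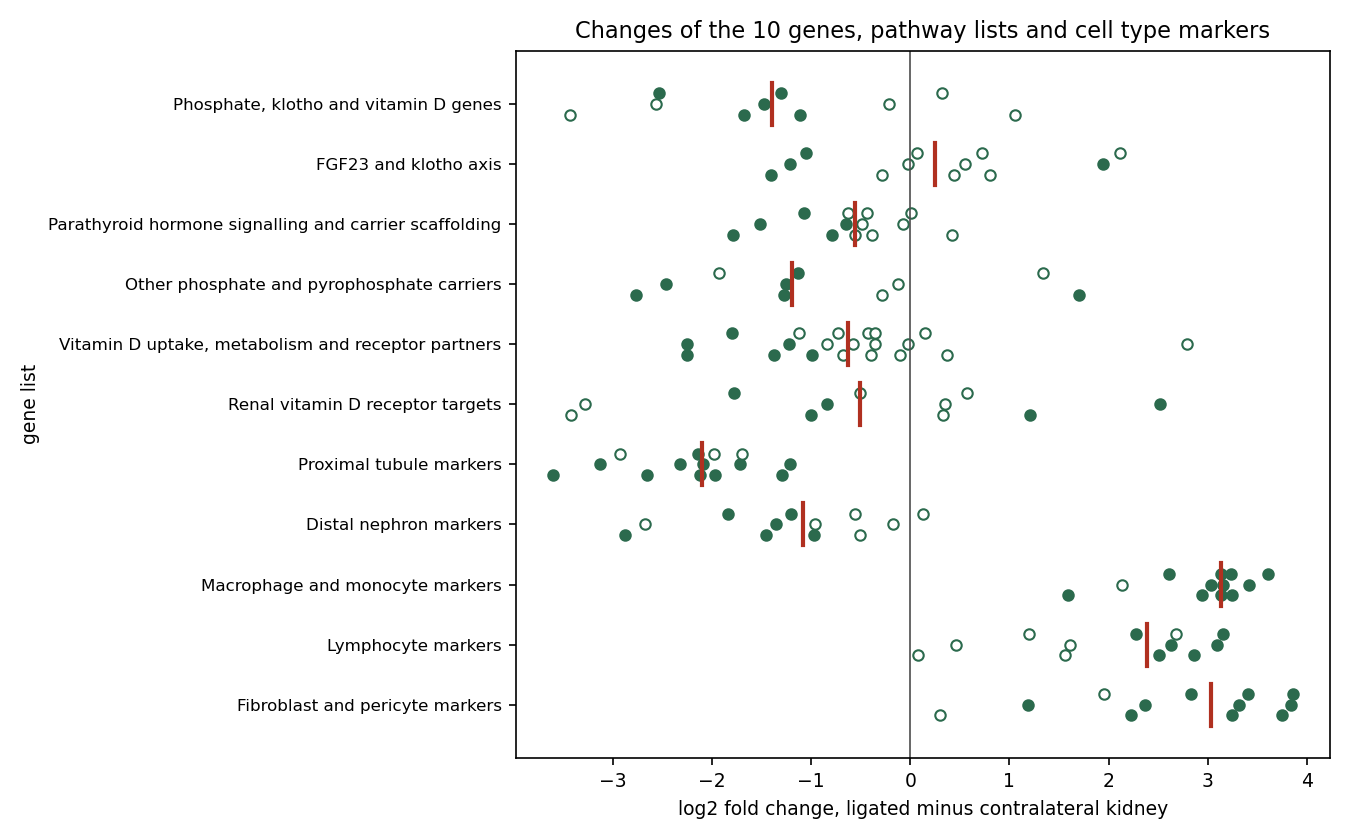
Log2 fold change (ligated minus contralateral) of the 10 genes, of the 5 pathway lists and of the 5 cell type marker lists; each point is a gene, filled where the adjusted p was under 0.05, and the red bar is the list's median. The 10 genes have a median of -1.39, between the distal nephron list at -1.08 and the proximal tubule list at -2.10, and macrophage markers have a median of 3.13.

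As a description, the genes whose log2 level over the 6 arrays was most like that of Slc34a1 were Slc22a17, Akr1c21, Slc16a4, Vwce and Angptl7, with Pearson r from 0.997 to 1.00. Those most like Kl were Abhd3, Acsm2, Acsm1, Spout1 and Khk, with r from 0.998 to 0.999. Acsm2 is also on the list of proximal tubule markers. The 6 points are pairs of kidneys from 3 animals and share the position of the control of mouse 512. Likeness of pattern did not mean likeness of size: Slc22a17 was at -0.82 and Spout1 at -0.66, against -2.57 for Slc34a1 and -2.53 for Kl.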

How the data were processed

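Total RNA of 6 kidney samples was labelled with Cy3 and hybridised to 1 array each of the Agilent design 014868, per the labels' protocols and the file headers. Scanner tables came from Feature Extraction 10.5.1.1, per the file headers, while the submitters' processing notes name 9.1. The intensity values the authors deposited are linear processed signals, background-subtracted and detrended within each array, per the file headers. The authors' deposited value table holds a linear ratio, found here to be the processed signal over the array median. Background and outlier flags are other values, 0 or 1, per the file headers. Probe positions are mm8.

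Control spots and outlying spots were left out, the processed signal was divided by its 75th percentile (671 to 1433 over the arrays) and taken to log2, and spots of a probe were averaged. In mice 495, 485 and 512 that percentile was 741, 671 and 1105 in contralateral and 1362, 1433 and 1068 in ligated kidneys. The divisor was thus higher on the ligated side in mice 495 and 485 but not in mouse 512. A probe counted as above background on an array when a share of 0.5 or more of its spots carried that flag. Probes above background on all 3 arrays of a group were kept, and the brightest stood for its gene. Names came from RefSeq accessions for 24363 of 41174 probes and otherwise from the files; Pck1, on a marker list, was not analysed here. limma 3.58.1 (R 4.3.3) was fitted to 19598 genes with the mouse as a fixed block, two-sided, with Benjamini-Hochberg adjustment at 0.05; it was tested on simulated data. With the block there were 2 residual degrees of freedom plus 2.06 from eBayes, and the number of arrays limits the precision. Other probes were tested in a fit of every probe. The labels' mouse numbers give the pairing, and the kidneys of 1 mouse deviated together from their group means (r = 0.194, 0.481 and 0.271 in mice 495, 485 and 512).

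All 10 genes were named. From each list, the 3 called genes with the largest change were named, or the one with the smallest p; other list genes were named after their values were seen. The genes, lists, tests and alternatives were chosen with earlier results of these data known. Alternatives were another block, background correction, normalization, centring, filter, treatment of probes and input, and leaving out mice or the control of mouse 512.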

Additional observations from a re-analysis of the deposited data

How the results depend on the processing

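Of the alternatives, the mouse left out mattered most. Leaving out 1 mouse, or the contralateral kidney of mouse 512, gave between 0 and 11042 genes changed (11026 without mouse 512, 6019 with all), between 0 and 7 of the 10 genes lower (5), between 0 and 2 higher (0), between 0 and 37 pathway list genes lower (35 without mouse 512, 22 with all) and between 0 and 10 higher (4); the low ends came without mouse 495 or mouse 485, the high ends without mouse 512 or its control. Slc20a1 ran from -0.12 without mouse 495, through -0.08 without mouse 485, to 1.17 without mouse 512. Cyp24a1 ran from -0.44 without mouse 495 to 0.049 without mouse 512, and was 0.11 on the spike-in scale. Without the mouse as a block (no replicate block), 1 of the 10 genes, Cyp27b1, was higher and 5 were lower, Slc34a3 being gained and Kl lost. Of the 19598 genes tested, 2752 were then higher and 2803 lower. With the slide as the block 1 of the 10 was higher and 7 were lower, Slc34a1 and Slc34a3 being gained. In that fit 3595 of all genes were higher and 3976 lower, against 3137 and 2882 in the main fit. When dim probes were kept, 28468 genes were tested and 2683 changed, 3 of the 10 were lower and 10 pathway list genes were lower. Centring on the spike-in spots gave 3097 genes changed and 10 pathway list genes lower, centring on the median 36 lower and quantile normalization 13 lower. The split of all genes, 3137 higher and 2882 lower, was 2566 and 5941 with centring on the median, 2444 and 653 on the spike-in scale, 1991 and 2765 with normexp and 1773 and 910 with no filter; the median change of all genes was then -0.32, 0.31, -0.18 and -0.23. Over 15 alternatives the 7 genes with a negative mean in all mice kept their sign. Background treatment limits the value of Cyp27b1, which was 1.05 and, with normexp, 0.53 (adjusted p = 0.122). The causes of these shifts were not tested.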
